A study of Mus musculus with 8 samples.

Results

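The 10 genes described here encode the DNA replication licensing machinery in mouse bone marrow: the helicase subunits Mcm2, Mcm3, Mcm4, Mcm5, Mcm6 and Mcm7, the loading factors Cdt1 and Cdc6, the CDT1 inhibitor geminin (Gmnn), and the sliding clamp Pcna. They were picked by gene symbol from the 53700 genes of the deposited table, and all 10 were among the 12132 genes that passed the filter on low counts. RNA was measured in 8 libraries, from 2 sorted populations of lineage-negative Sca-1+ Kit+ (LSK) marrow cells: hematopoietic stem cells (HSC, CD48- CD150+) and multipotent progenitors (MPP, CD48+ CD150-). Each population came from 4 donor genotypes, which the labels call WT (Nfat5 +/+ with Vav-Cre), N5 (Nfat5 fl/fl with Vav-Cre), IFNAR (deficient in IFNAR1, which forms part of the receptor for type I interferons) and DKO (deficient in both NFAT5, an osmosensitive transcription factor, and IFNAR1). Vav-Cre deletes in blood-forming cells. The labels give Vav-Cre for the WT, N5 and DKO donors and do not name it for the IFNAR donors. The donors' ages were not given in the sources used here.

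In every group, CD45.2 donor marrow had been placed into irradiated wild-type CD45.1 recipients, and donor-derived cells were sorted 13 weeks later. Each library pooled equal cell numbers from 5 mice, and each cell type and genotype had 1 library. The 4 genotypes therefore served as the replicates of the HSC against MPP comparison, and all p-values measure only the spread between these pooled libraries.

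Licensing is the step that prepares a chromosome for a single round of copying. In late mitosis and G1 the origin recognition complex, CDC6 and CDT1 load the ring of MCM2 to MCM7 onto DNA, and the loaded rings become active helicases only in S phase, when geminin binds CDT1 and the PCNA clamp at the fork recruits the machinery that destroys CDT1, so that no origin is licensed again. HSCs in adult marrow are known to be mostly quiescent, multipotent progenitors to divide more often, and the MCM genes are textbook targets of the E2F transcription factors.

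Total counts ranged from 28871693 to 47205950 per library, a 1.64-fold range. The sorting markers followed the cell type labels. Slamf1, which encodes CD150, measured 52.2 to 90.0 CPM (counts relative to each library's scaled total) in the 4 HSC libraries and 0 to 0.0275 CPM in the MPP libraries, and Cd48 measured 0 to 6.36 CPM in HSC and 202 to 284 CPM in MPP. The genotype labels were not mirrored by Nfat5 and Ifnar1 themselves. Nfat5 stood at 33.2 CPM (WT), 22.7 (N5), 3.12 (IFNAR) and 35.5 (DKO) in the HSC libraries, and the MPP libraries held 5.59, 7.69, 0.193 and 11.5 CPM. Ifnar1 stood at 122 CPM (WT), 126 (N5), 113 (IFNAR) and 35.1 (DKO) in the HSC libraries, with 37.2, 87.9, 43.8 and 125 CPM in those of MPP. In both populations Nfat5 was lowest in the IFNAR library, whose label leaves Nfat5 intact, and highest in the DKO library. Ifnar1 in MPP was also highest in the DKO library. Whole-gene counts can keep reads from parts of a gene outside a deletion, and the labels do not say which parts were deleted. The cause of the mismatch was not tested. These values therefore neither check nor replace the genotypes, and each library is called by its label below.

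Promoter windows from 250 bases before to 50 bases after the RefSeq start were matched by symbol for 8 of the 10 genes (9 windows on GRCm38.p6, with 2 for Mcm7; Mcm4 and Gmnn had no entry). They were searched on both strands for the E2F words TTTCCCGC, TTTGGCGC, TTTCGCGC and TTTGCCGC. At least 1 of these 4 words was found in 6 of the 8 genes (Mcm3, Mcm5, Mcm6, Mcm7, Cdt1 and Cdc6), against 2.265% of all 32851 windows of the same length. Mcm2 and Pcna held none. Mcm6 held 3 matches, and Mcm3, Mcm5 and the first window of Mcm7 held 2 each, against 0.097% of all windows with 2 or more. The second window of Mcm7 held none. At Mcm5 and Mcm6, 2 matches overlap on opposite strands. CCAAT, the letters of the NF-Y box, was found in Mcm2, Mcm3, Mcm5, Mcm6, Mcm7 and Pcna, or 6 of 8, against 37.408% of all windows. A match is a description of these letters and was not tested as a binding site. The second E2F word of Mcm3, at bases 39 to 46, lies past its printed stretch. The stretches below carry E2F words and are printed 5′ to 3′ on each gene's own strand, with the E2F words in capitals and base 1 at the RefSeq start.
Mcm5, bases -173 to -64, chr8:75109336-75109445, plus strand: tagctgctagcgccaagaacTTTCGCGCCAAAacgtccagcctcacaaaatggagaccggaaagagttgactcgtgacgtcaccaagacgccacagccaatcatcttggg
Mcm6, bases -130 to -20, chr1:128359725-128359835, minus strand: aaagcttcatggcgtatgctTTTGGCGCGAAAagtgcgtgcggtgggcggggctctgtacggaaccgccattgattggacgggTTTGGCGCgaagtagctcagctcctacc
Mcm7, bases -185 to -76, chr5:138171959-138172068, minus strand: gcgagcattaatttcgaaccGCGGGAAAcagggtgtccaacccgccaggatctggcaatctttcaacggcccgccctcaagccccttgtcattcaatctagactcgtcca
Mcm7, bases 6 to 35, chr5:138171849-138171878, minus strand: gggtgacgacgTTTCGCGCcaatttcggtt
Mcm3, bases 9 to 38, chr1:20820275-20820304, minus strand: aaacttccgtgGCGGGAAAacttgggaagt
Cdt1, bases 21 to 50, chr8:122568035-122568064, plus strand: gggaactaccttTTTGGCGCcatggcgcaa
Cdc6, bases -158 to -49, chr11:98907993-98908102, plus strand: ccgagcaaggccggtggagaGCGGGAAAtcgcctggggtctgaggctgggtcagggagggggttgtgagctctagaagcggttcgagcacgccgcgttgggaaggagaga

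**Figure D1:**
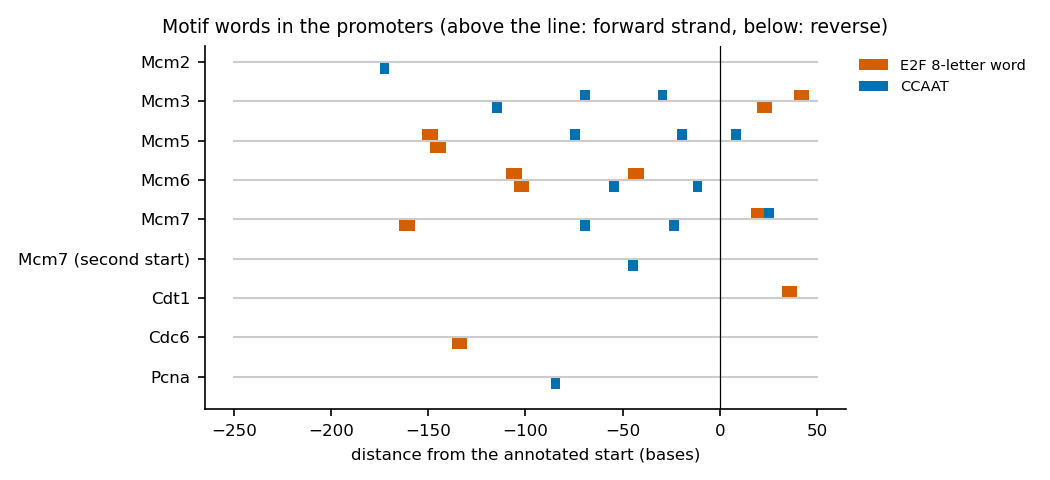
Positions of E2F words and CCAAT in the promoter windows of the 8 matched genes, by distance in bases from the RefSeq start. The E2F matches of Mcm5, Mcm6 and Cdc6 lie upstream of the start, those of Mcm3 and Cdt1 downstream, and Mcm7 has 1 on each side.

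Of the 6 helicase subunits, Mcm6, Mcm3 and Mcm7 were lower in every HSC library than in any MPP library. Mcm7 (ENSMUSG00000029730.17), a subunit of the ring's ATPase core, was the steadiest of the 10 genes. It measured 451, 425, 453 and 477 CPM in HSC (451 ± 21.2, mean ± SD, n = 4), where values run in the order of labels above, and 895, 824, 912 and 816 CPM in MPP (862 ± 49.0). The libraries of each population lay close together, with a coefficient of variation of 4.70% in HSC and 5.68% in MPP, and the populations did not overlap. The log2 fold change of HSC against MPP was -0.93 (SE 0.10, 95% interval -1.18 to -0.68), a level 1.91-fold higher in MPP. The edgeR p was 0.000178 and the adjusted p over 12132 genes 0.0831, and Mcm7, rank 26 of all genes by p, did not pass the 0.05 threshold. Both populations are bulk samples, in which fewer cells in cycle and less RNA per cell cannot be told apart.

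Mcm6 (ENSMUSG00000026355.12), another ATPase subunit, measured 780.2, 779, 694 and 581 CPM in HSC (709 ± 94.4) and 1350.4, 1482, 1107 and 883 CPM in MPP (1206 ± 265). The highest HSC library stayed below the lowest MPP library, and the DKO library was the lowest of both populations. HSC differed from MPP by -0.75 on the log2 scale (SE 0.10), or 1.68-fold higher in MPP, with an edgeR p of 0.000582 and an adjusted p of 0.144. Mcm3 (ENSMUSG00000041859.11), a further ATPase subunit of the ring, measured 557, 673, 469 and 471 CPM in HSC (542 ± 96.5) and 767, 1105, 907 and 773 CPM in MPP (888 ± 158). Here the N5 library was the highest of both populations, and the ranges again stayed apart. The difference was -0.71 on the log2 scale (SE 0.12), or 1.64-fold, with an edgeR p of 0.0015 and an adjusted p of 0.184.

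Mcm2, Mcm5 and Mcm4 were lower in HSC within each of the 4 genotypes, but the ranges of the populations overlapped. Mcm2 (ENSMUSG00000002870.9), which with MCM5 forms the gate of the ring and binds histones, measured 454, 536, 385 and 258 CPM in HSC (408 ± 118) and 639, 617, 567 and 506 CPM in MPP (582 ± 59.3). Its overlap came from the HSC library labelled N5, which exceeded the MPP library labelled DKO. Its fitted log2 difference was -0.56 (SE 0.15) and the edgeR adjusted p 0.345. Mcm5 (ENSMUSG00000005410.7) measured 506, 406, 229 and 334 CPM in HSC (368 ± 117) and 651, 534, 565 and 441 CPM in MPP (548 ± 86.6). The HSC library labelled WT lay above the MPP library labelled DKO, and the IFNAR library was the lowest HSC library. For Mcm5 the log2 fold change was -0.61 (SE 0.20) and the edgeR adjusted p 0.407.

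Mcm4 (ENSMUSG00000022673.6), which with MCM6 and MCM7 makes up the ATPase core, varied most among the subunits. It measured 56.5, 205, 189 and 297 CPM in HSC (187 ± 99.2) and 252, 463, 389 and 376 CPM in MPP (370.2 ± 87.4). The WT library was the lowest of both populations, and the HSC library labelled DKO exceeded the MPP library labelled WT. Within genotypes the log2 difference ran from -2.16 in WT to -0.34 in DKO, with -1.17 in N5 and -1.04 in IFNAR. The fitted log2 fold change was -1.18 (SE 0.31, 95% interval -1.97 to -0.39), or 2.26-fold, with an edgeR p of 0.0119 and an adjusted p of 0.33. In the blocked fit, leaving out 1 library takes its whole genotype pair out of the comparison. Without the HSC library labelled WT, and so without the WT pair, the log2 fold change of Mcm4 was -0.86. Without the HSC library labelled DKO, and so without the DKO pair, it was -1.46. Neither passed the adjusted threshold.

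**Figure D2:**
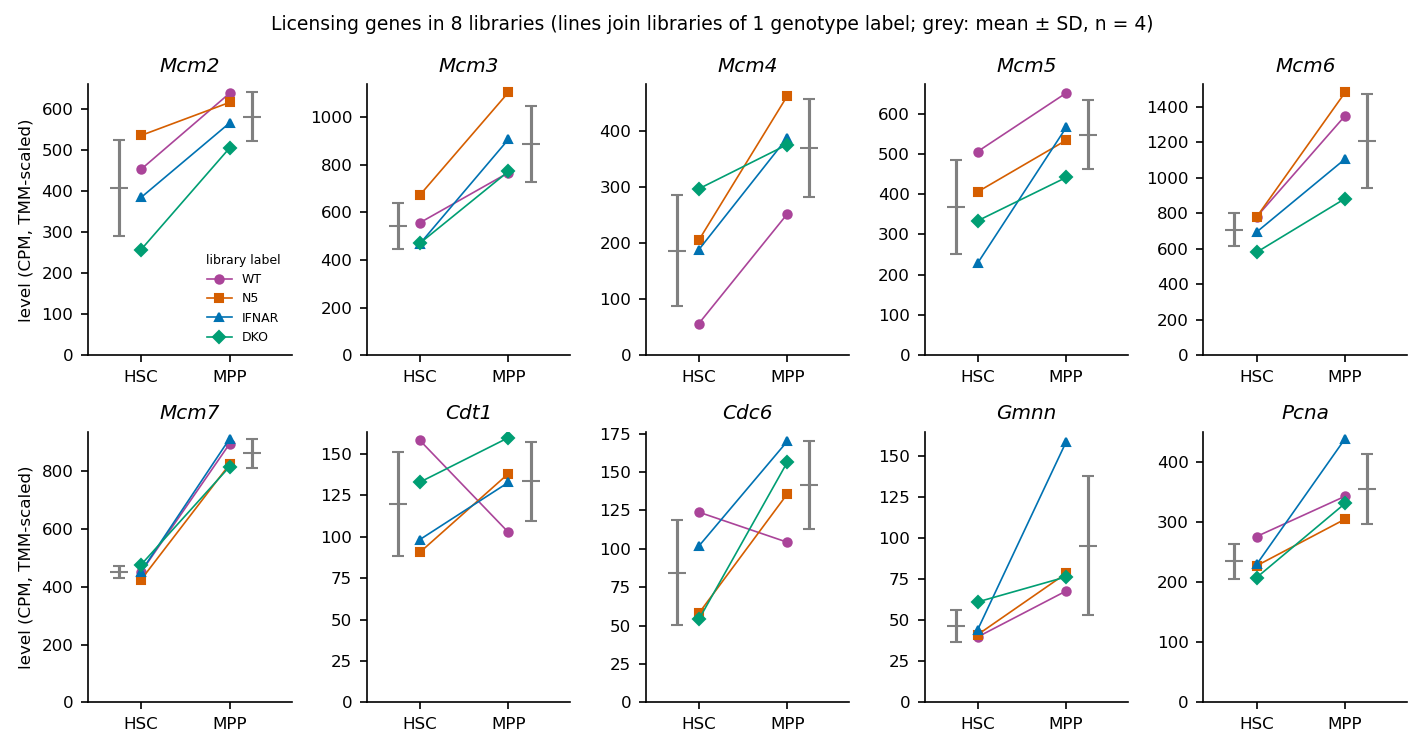
CPM of the 10 genes in the 8 libraries, on linear axes that start at 0, with lines that join libraries of 1 genotype label and the mean and SD of each population in grey (n = 4 libraries). For Mcm3, Mcm6, Mcm7, Gmnn and Pcna every HSC point lies below every MPP point, and for the other 5 genes the populations overlap.

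Summed over the 6 subunits, helicase transcripts made up 2804, 3025, 2418 and 2417 CPM in HSC (2666 ± 301, n = 4) and 4555, 5025, 4447 and 3795 CPM in MPP (4456 ± 507). The summed level was 1.67-fold higher in MPP on average, and 1.62-fold, 1.66-fold, 1.84-fold and 1.57-fold higher in the WT, N5, IFNAR and DKO pairs. As a share of all counts the subunits took from 0.243% (95% exact binomial interval 0.241% to 0.244%, HSC labelled DKO) to 0.300% (0.298% to 0.302%, HSC labelled N5) in HSC. In MPP they took from 0.381% (0.379% to 0.383%, labelled DKO) to 0.496% (0.493% to 0.498%, labelled N5). By this share N5 was the highest and DKO the lowest library in both populations. These intervals cover counting error only, and they treat each read as an independent draw. The reads carry no molecular identifiers, so that could not be checked, and the intervals may be too narrow.

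Mcm4 was the least abundant subunit relative to the others in 7 of the 8 libraries, the HSC library labelled DKO being the exception with Mcm2 lowest. As a log2 ratio to the geometric mean of the 6 subunits in the same library, the HSC libraries gave Mcm4 a value of -2.71 (WT), -1.17 (N5), -0.96 (IFNAR) and -0.38 (DKO). The MPP libraries gave -1.43, -0.73, -0.84 and -0.67 in the same order. The WT libraries had the lowest ratio in both populations. By contrast, Mcm7 kept a ratio between -0.13 and 0.30 in HSC and between 0.10 and 0.44 in MPP, and Mcm6 was the subunit with the highest ratio in all 8 libraries. The SD of the 6 ratios within a library was 1.36 in the HSC library labelled WT and 0.458 to 0.803 in the other 7 libraries. These ratios are given as values, with no test.

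**Figure D3:**
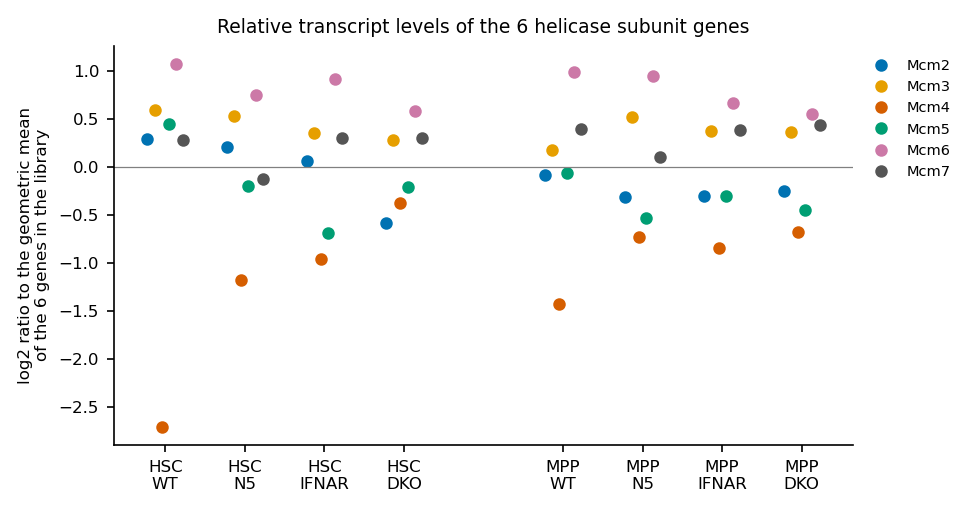
Log2 ratio of each of the 6 MCM subunits to the geometric mean of the 6 in the same library, with 1 point per library. Mcm4 lies below the other subunits in the HSC library labelled WT at -2.71, and its HSC points spread up to -0.38.

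Among the regulators of loading, Gmnn was lower in every HSC library than in any MPP library, whereas the loading factors overlapped. Gmnn (ENSMUSG00000006715.12), which blocks CDT1 in S and G2 phase, measured 39.8, 41.2, 44.2 and 61.1 CPM in HSC (46.6 ± 9.85) and 67.8, 78.5, 158 and 76.3 CPM in MPP (95.3 ± 42.4). The MPP library labelled IFNAR stood far above the other 3 MPP libraries, and the DKO library was the highest of the HSC libraries. In the fit Gmnn had a log2 fold change of -0.96 (SE 0.34, 95% interval -1.83 to -0.10), or 1.95-fold, with an edgeR p of 0.0353 and an adjusted p of 0.444. Leaving out the MPP library labelled IFNAR moved it to -0.68, with an adjusted p of 0.738 by edgeR. Leaving out the HSC library labelled IFNAR moved it to -0.67. Either way the blocked fit lost the IFNAR pair, so the shift cannot be assigned to the MPP library alone.

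Cdt1 (ENSMUSG00000006585.4), the loader that geminin inhibits, measured 158.0, 90.5, 98.2 and 133 CPM in HSC (119.9 ± 31.3) and 103, 138, 133 and 159.7 CPM in MPP (133 ± 23.5). The populations overlapped over most of their range, and the WT pair went the other way, with 0.62 on the log2 scale against -0.61, -0.43 and -0.27 in N5, IFNAR and DKO. Its log2 fold change was -0.17 (SE 0.26, 95% interval -0.83 to 0.48, edgeR adjusted p 0.917), the smallest difference of the 10 genes. Without the HSC library labelled WT, and so without the WT pair, it was -0.44. Cdc6 (ENSMUSG00000017499.16), the ATPase that brings CDT1 and MCM to the origin complex, measured 124, 58.0, 102 and 54.0 CPM in HSC (84.4 ± 34.1) and 104, 136, 170.0 and 156 CPM in MPP (142 ± 28.6). Again the WT pair was the exception, with 0.25 on the log2 scale against -1.23, -0.74 and -1.53. The log2 fold change of Cdc6 was -0.82 (SE 0.35, 95% interval -1.70 to 0.05), with an edgeR p of 0.0610 and an adjusted p of 0.523. With the WT pair lost in the same way it was -1.17.

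The log2 ratio of Gmnn to Cdt1, inhibitor to target, was -1.99, -1.14, -1.15 and -1.12 in HSC (-1.35 ± 0.43) and -0.60, -0.81, 0.26 and -1.06 in MPP (-0.55 ± 0.57). Every HSC library had a lower ratio than every MPP library, by 0.79 on average, and the DKO libraries were the closest pair. These ratios compare counts per gene and not per length, so their differences between libraries can be read but not the level itself. The ratio was set after earlier results of these data were known and was not tested.

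Pcna (ENSMUSG00000027342.15), the clamp that holds polymerases on DNA, measured 277, 228, 229.9 and 208 CPM in HSC (236 ± 29.0) and 344, 306, 439.6 and 332 CPM in MPP (355 ± 58.5). All HSC libraries lay below all MPP libraries, with the WT library the highest HSC library and the IFNAR library the highest MPP library. The log2 fold change was -0.59 (SE 0.15, 95% interval -0.97 to -0.20), or 1.50-fold, with an edgeR p of 0.0105 and an adjusted p of 0.324. Relative to the geometric mean of the MCM subunits, Pcna stood at -0.75 ± 0.27 in HSC and -0.96 ± 0.28 in MPP on the log2 scale, less apart than the spread within either population.

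Taken over the 10 genes, all 10 had a log2 fold change below 0, against 55.8% of all genes tested, and their median was -0.73 against -0.10 over all genes. In 8 of 10 the HSC library was the lower one in all 4 genotype pairs (background 12.2%), the exceptions being Cdt1 and Cdc6. In 5 of 10 all HSC libraries lay below all MPP libraries (background 5.65%). An unadjusted edgeR p under 0.05 with a lower level in HSC was reached by 8 of 10 (background 5.65%; 1225 genes in either direction). None of the 10 passed the adjusted threshold in edgeR, where 2 of 12132 genes, or 0.0165%, were called; these 2 were Dntt and Cd34, and the smallest adjusted p among the 10 genes was the 0.0831 of Mcm7.

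The number of calls depended on the tool. DESeq2 called 8 of the 10 lower in HSC (background 8.61%), namely all but Cdt1 and Cdc6, with adjusted p-values from 1.26e-29 for Mcm7 to 0.0337 for Gmnn. Limma-voom called 3 (background 0.833%), Mcm7 with an adjusted p of 0.0182, Mcm6 with 0.0239 and Mcm3 with 0.045. Both tools gave every one of the 10 genes the same direction as edgeR.

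**Figure D4:**
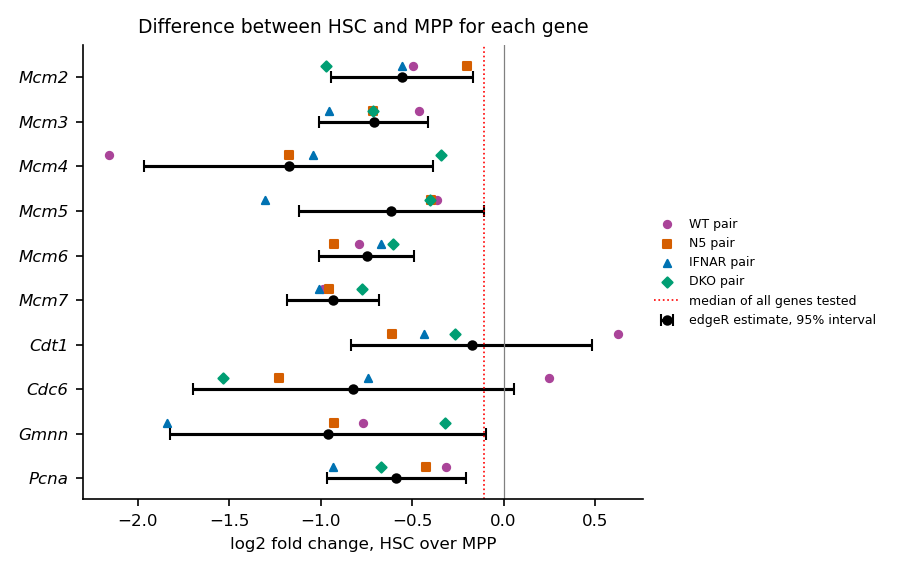
Log2 fold change of HSC against MPP for the 10 genes from edgeR, with 95% intervals, and the 4 within-genotype differences as points. All 10 estimates lie below 0, from -1.18 for Mcm4 to -0.17 for Cdt1, and only the intervals of Cdt1 and Cdc6 include 0.

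Markers of other cell types also differed between the populations. In summed CPM, erythroid markers measured 291 to 877 in HSC and 251 to 531 in MPP (5 of 10 higher in MPP), and megakaryocyte markers 430 to 903 and 45.6 to 178 (0 of 9 higher in MPP, with Gp1bb, Cavin2 and Mpig6b at 0 there). B cell markers measured 34.7 to 107 in HSC and 919 to 1930 in MPP (6 of 8 higher in MPP, with Pax5 and Igll1 at 0 in HSC), and neutrophil markers 693 to 823 and 1125 to 3625 (3 of 9). Monocyte and macrophage markers measured 8.32 to 65.6 in HSC and 183 to 619 in MPP (7 of 7, with Ccr2, F13a1, Adgre1 and C1qa at 0 in HSC), and mast cell and basophil markers 0 to 40.7 and 40.7 to 149 (4 of 5, with Ms4a2 and Fcer1a at 0 in HSC). T and NK cell markers measured 34.0 to 67.0 in HSC and 301 to 371 in MPP (4 of 7; Cd3e and Cd3d were at 0 in all 8 libraries), and stromal and endothelial markers 46.7 to 125 and 126 to 239 (2 of 7; Cdh5, Col1a1 and Lepr were at 0 throughout). B cell, monocyte, neutrophil and T and NK cell sums were thus higher in every MPP library than in any HSC library. The mast cell and basophil sum and the stromal and endothelial sum were so too, by a narrow margin. The megakaryocyte sum was higher in every HSC library. The T and NK cell sum in MPP was almost all Nkg7 (291 to 371 CPM), and only 1 of the 7 genes passed the filter. The monocyte and macrophage list holds Csf1r, which was also listed as an MPP marker, and 5 of the 7 genes of that list passed the filter. The higher neutrophil sum in MPP came from 3 of 9 genes. The proliferation marker Mki67 measured 111, 40.9, 60.1 and 105 CPM in HSC and 167, 119, 144 and 231 CPM in MPP. The part of these genes' cell types in the licensing values was not tested.

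Levels between genes were compared as CPM per kilobase of the longest principal coding transcript (GENCODE M21, GRCm38). In HSC the order was Mcm6 (244 ± 32.5, n = 4), Mcm3 (179 ± 31.8), Pcna (155 ± 19.1), Mcm7 (152 ± 7.16), Mcm2 (121 ± 35.0), Mcm5 (109 ± 34.6), Cdt1 (54.8 ± 14.3), Mcm4 (52.1 ± 27.6), Gmnn (41.3 ± 8.74) and Cdc6 (33.0 ± 13.3). The ranges of all neighbours in that order overlapped. In MPP the order was Mcm6 (414 ± 91.1), Mcm3 (293 ± 52.3), Mcm7 (291 ± 16.5), Pcna (234 ± 38.5), Mcm2 (173 ± 17.6), Mcm5 (162 ± 25.6), Mcm4 (103 ± 24.4), Gmnn (84.5 ± 37.6), Cdt1 (60.9 ± 10.8) and Cdc6 (55.3 ± 11.2). There the only neighbours whose ranges stayed apart were Pcna and Mcm2, and Mcm5 and Mcm4. The loaders Cdt1 and Cdc6 therefore stood in the lower 4 of both orders, and Mcm6 and Mcm3 led both. Mcm7 shares 321 exonic bases with Ap4m1 and 64 with Cops6 on the opposite strand, so in this unstranded library some of its reads could belong to those genes. The pseudogene Pcna-ps2 held 88 to 240 counts per library, against 6984 to 15977 for Pcna, and Pcna-ps1 held 0.

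The donor genotype contrasts used the same 8 libraries as the cell type comparison, in an additive model. The labels do not name Vav-Cre for the IFNAR donors, so pairs of an IFNAR library with another genotype may also differ in Cre. In both contrasts, such a difference cannot be told apart from the Nfat5 or Ifnar1 status in those pairs. For the Nfat5 labels (N5 and DKO against WT and IFNAR), edgeR called 0 of 10 genes (background 0.00%), and 0 of 10 reached an unadjusted p under 0.05 (background 2.79%). The median over the 10 genes was -0.10, against 0.02 over all genes. Pcna was the only one of the 10 that was lower in all 4 pairs (background 5.81%), with a log2 fold change of -0.26 (SE 0.14, p 0.111). Mcm4 came nearest to the threshold with 0.82 (SE 0.34, p 0.0502). DESeq2 (background 1.37%) and limma-voom (background 0.00%) also called none of the 10.

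For the Ifnar1 labels (IFNAR and DKO against WT and N5), edgeR again called 0 of 10 (background 0.00%), and Mcm2 and Mcm6 reached an unadjusted p under 0.05 (2 of 10, background 3.28%). Mcm2, Mcm5 and Mcm6 were lower in all 4 pairs (3 of 10, background 6.44%). For Mcm6 the 4 log2 differences were -0.17 and -0.43 in HSC and -0.29 and -0.75 in MPP, with a fitted value of -0.41 (SE 0.12, p 0.0119, edgeR adjusted p 1). DESeq2 called Mcm6 (1 of 10, background 1.92%) with an adjusted p of 0.0204, and limma-voom called none of the 10 (background 0.00824%). The fitted values of Mcm2 and Mcm5 were -0.44 (SE 0.17, p 0.0394) and -0.46 (SE 0.20, p 0.0563), while that of Mcm7 was 0.05 (SE 0.09, p 0.617), and the median over the 10 genes was 0.03 against -0.01 over all genes. Whether the HSC against MPP difference itself depended on genotype was tested as an interaction, and edgeR called 0 of 10 for both sets of labels, as for all genes (background 0.00%), the smallest unadjusted p being 0.0567 for Cdc6 with the Nfat5 labels and 0.117 for Pcna with the Ifnar1 labels.

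The rest of the replication pathway was read from 12 lists of related genes, beside 20 mitosis genes. Of 133 replication genes tested outside the 10, 104 had a lower level in HSC, 43 were lower in all 4 pairs, 33 lay lower without overlap and 2 higher without overlap (background 4.73% higher). An unadjusted p under 0.05 was reached by 34 lower and 2 higher genes (background 4.45% higher), and edgeR's adjusted test called 0. DESeq2 called 45 (background 15.5% in either direction), of which 39 were lower in HSC, and limma-voom called 4 (background 1.29%), of which 3 were lower. The median log2 fold change was -0.65, close to the -0.73 of the licensing genes. The 20 mitosis genes all had a lower level in HSC, with a median of -1.07, of which 10 reached an unadjusted p under 0.05, 10 were called by DESeq2 and 0 by edgeR.

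The factors that act before and beside MCM loading were mixed. Of the 7 origin recognition genes, which mark where MCM rings are loaded, 5 were lower in HSC and 0 in all 4 pairs, with a median of -0.84. Orc6 measured 45.5 ± 8.83 CPM in HSC against 81.6 ± 17.0 CPM in MPP (edgeR adjusted p 0.519), and Orc2 51.8 ± 44.0 and 100.3 ± 44.4 CPM (adjusted p 0.55). Orc1 measured 58.5, 8.48, 0 and 0 CPM in HSC and 29.4, 9.55, 38.6 and 24.9 CPM in MPP, so that the WT pair went against the other libraries. All 9 other MCM-family and MCM-binding genes were lower in HSC, 4 of them in all 4 pairs, and 4 were called by DESeq2. Mcm10, which joins the active helicase to the polymerases, measured 30.4 ± 16.0 CPM in HSC and 118 ± 8.95 CPM in MPP without overlap (log2 fold change -2.12, SE 0.44, edgeR adjusted p 0.259), and the histone chaperone gene Nasp measured 64.2 ± 32.4 and 195 ± 43.2 CPM (-1.71, SE 0.27, adjusted p 0.173). Mcm9 measured 0.725, 37.9, 44.5 and 1.12 CPM in HSC and 23.2 to 41.1 CPM in MPP.

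Of 13 genes listed as helicase activation and firing factors, 11 were lower in HSC. The only 1 at an unadjusted edgeR p under 0.05 was Dnajc9 (p 0.0131), a histone co-chaperone gene named here after its values were seen. Donson measured 0 to 12.9 CPM in HSC and 13.7 to 63.0 CPM in MPP without overlap, whereas Mtbp and Recql4 were at 0 in 2 HSC libraries each, Recql4 also in 1 MPP library, and overlapped. Fork protection genes were lower in 7 of 9, and 1 of the 9 lay lower without overlap. Rif1 measured 19.6 ± 16.5 CPM in HSC and 48.3 ± 20.5 CPM in MPP, and Wdhd1 59.1 ± 54.8 and 125 ± 22.2 CPM, both with overlap. Clspn was at 0 in 2 HSC libraries and also overlapped. All 12 polymerase and primase genes were lower in HSC, 3 of them without overlap. Pold1, the catalytic subunit of polymerase delta, measured 200 ± 67.4 CPM in HSC and 367 ± 58.3 CPM in MPP (edgeR adjusted p 0.321), its partner Pold2 137 ± 23.4 and 254 ± 66.4 CPM (adjusted p 0.309), and Pole 66.3 ± 49.6 and 116 ± 34.9 CPM with overlap.

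Of the 19 clamp loader, RPA and lagging-strand genes, 18 were lower in HSC, 9 in all 4 pairs, and DESeq2 called 6. Pclaf, which encodes a PCNA-binding factor, had the smallest adjusted p of any replication list, with 45.0 ± 19.9 CPM in HSC and 204 ± 55.6 CPM in MPP (log2 fold change -2.25, SE 0.23, edgeR adjusted p 0.0719). Rfc3 measured 35.8 ± 20.6 CPM in HSC and 94.0 ± 14.4 CPM in MPP, and Dscc1 0 to 25.8 and 26.4 to 46.1 CPM. Of the 13 genes listed for CDT1 and CDC6 turnover, some of which, such as Fbxo5 and Usp37, oppose it, 8 were lower, with a median of -0.29. Dtl, which carries CDT1 to its ubiquitin ligase at PCNA, measured 135 ± 10.2 CPM in HSC and 227 ± 31.8 CPM in MPP without overlap (edgeR adjusted p 0.275). Skp2 measured 17.9 ± 13.4 and 44.2 ± 19.8 CPM and Fbxo5 50.7 ± 23.5 and 80.0 ± 19.8 CPM, both with overlap.

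Deoxynucleotide supply genes were lower in 8 of 11 cases, and all 8 were lower in all 4 pairs, at an unadjusted p under 0.05 and called by DESeq2. Tyms, which makes thymidylate, measured 99.2 ± 42.4 CPM in HSC and 221 ± 35.7 CPM in MPP, while Rrm2b measured 16.6 ± 11.3 and 9.56 ± 9.77 CPM with overlap. Chromatin assembly genes were lower in 9 of 10, with Chaf1a at 88.4 ± 36.0 and 181 ± 48.6 CPM without overlap, and with Hells (67.3 ± 40.0 and 107 ± 30.8 CPM) and Asf1b (63.3 ± 26.3 and 96.8 ± 19.6 CPM) overlapping.

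By direction the E2F and retinoblastoma family did not lean either way, with 8 of 17 genes lower and 9 higher in HSC and a median of 0.07. DESeq2 called 4 of the 17 (background 15.5% in either direction), of which 1 was lower in HSC (background 8.61%). E2f1 measured 15.6 ± 7.41 CPM in HSC and 4.69 ± 2.14 CPM in MPP with overlap, higher in HSC in all 4 pairs. Its log2 fold change was 1.71 (SE 0.93, edgeR adjusted p 0.653, DESeq2 0.0131). E2f2 and Mybl2 spread widely within both populations. Among 13 genes listed as S-phase cyclins and kinases, 9 were lower in HSC. The list also holds the phosphatase gene Cdc25a and the CDK inhibitor genes Cdkn1a and Cdkn1b. Both inhibitor genes were among the lower ones and averaged under 10 CPM. Cdk6, the G1 kinase that acts on the retinoblastoma protein, measured 258 ± 55.6 CPM in HSC and 679 ± 81.7 CPM in MPP (-1.41, SE 0.18, adjusted p 0.138), and cyclin A gene Ccna2 89.3 ± 34.0 and 264 ± 55.9 CPM (-1.63, SE 0.38, adjusted p 0.284), while Cdc25a overlapped at 8.98 ± 7.60 and 20.5 ± 10.3 CPM. Both D-type cyclin genes with an unadjusted p under 0.05 went the other way, and they are named here after their values were seen. Ccnd2 measured 696 ± 98.8 CPM in HSC and 303 ± 90.4 CPM in MPP without overlap (1.24, SE 0.17, edgeR adjusted p 0.144, DESeq2 7.54e-12, limma-voom 0.0386), and Ccnd3 392 ± 72.6 and 286 ± 21.5 CPM with overlap, higher in HSC in all 4 pairs (0.44, SE 0.13, edgeR adjusted p 0.389, DESeq2 0.00523). In the mitosis list Top2a measured 206 ± 51.9 CPM in HSC and 672 ± 118 CPM in MPP (-1.73, SE 0.23, adjusted p 0.139), and Cenpe and Cenpf were at 0 in 1 HSC library each. The geminin-related genes Gmnc and Mcidas had 0 counts in all 8 libraries.

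**Figure D5:**
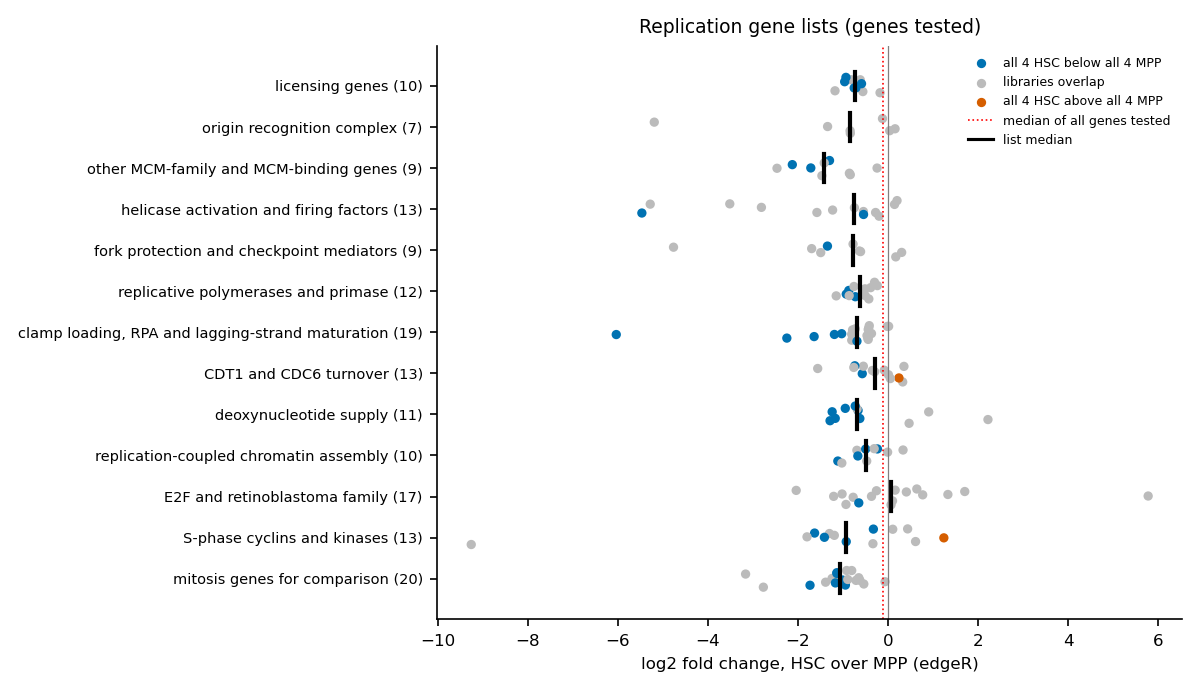
Log2 fold change of HSC against MPP for each tested gene of the replication lists, the 10 licensing genes and the mitosis genes, with the median of each list marked. Values beyond -4 or 4 belong to genes with libraries at or near 0, whose fitted fold depends on the prior count. The medians run from -1.41 for the other MCM-family genes to 0.07 for the E2F and retinoblastoma family.

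Profiles over the 8 libraries were compared with the mean centred log2 profile of the 6 MCM subunits, by root-mean-square distance. The comparison covered 7481 protein-coding genes with a mean of at least 20 CPM, with predicted genes (symbols of Gm and a number) left out. The nearest gene was Mcm3 itself (0.131, log2 units). The nearest genes outside the 10 were the proteasome maturation factor gene Pomp (0.138), the histone variant gene H2az1 (0.145), Sumo2 (0.145), Selplg (0.146) and Sh3bgrl3 (0.153). Pomp measured 98.7 ± 10.5 CPM in HSC and 148 ± 3.01 CPM in MPP, and H2az1 1059 ± 145 and 1637 ± 86.9 CPM. Within the 10 genes, Mcm7 ranked 15 and Mcm6 19 by likeness, Pcna 107, Mcm2 157 and Mcm5 310, while Gmnn ranked 852, Cdt1 1407, Cdc6 1487 and Mcm4 3268. The subunits enter the mean profile themselves, so their ranks are a description of the spread within the helicase and not of likeness to other genes.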

How the data were processed

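RNA from donor-derived HSC and MPP of 4 donor genotypes was made into polyA Smart-Seq2 libraries, which are unstranded and carry no molecular identifiers. The authors deposited whole-number counts per gene, 1 column per library. Reads were aligned with STAR 2.7.8a and quantified with RSEM 1.3.0 on GRCm39, per the submitters' processing notes; gene annotation and read filters: not given in the sources used here.

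Counts were tested with edgeR 4.0.16 (R 4.3.3) quasi-likelihood on 12132 genes kept by its expression filter (99.5% of all counts), with TMM scaling, a block for the donor label that left 3 residual degrees of freedom, and Benjamini-Hochberg adjustment over all tested genes at 0.05. Nfat5 and Ifnar1 contrasts used an additive model (4 residual degrees of freedom). CPM values are TMM-scaled; within-pair differences use a prior count of 2. DESeq2 1.42.0, limma-voom (limma 3.58.1), other scalings, filters, blocks and left-out libraries were tried, and the closing section gives their effect. The steps were tested on simulated data. Depth was 28871693 to 47205950 counts per library.

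The 10 genes and all gene lists were chosen with earlier results of these data known. Of each list, up to 3 genes with at least 10 CPM on average and the largest fold changes are named; 1 such gene is not reported here. Promoters come from RefSeq (GRCm38.p6); lengths and overlaps come from GENCODE M21, another build than the counts.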

Additional observations from a re-analysis of the deposited data

Results flagged for a closer look

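Gmnn in the MPP libraries held 1 library far from the others: the MPP library labelled IFNAR measured 158.476 CPM, against 67.8, 78.5 and 76.3 CPM in the libraries labelled WT, N5 and DKO. Its gap to the nearest library was 0.882 of the group's range, above the critical value of Dixon's test for 4 samples. The 10 genes in 2 populations gave 20 such tests, and chance flags about 1 in 20.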

How the results depend on the processing

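All 10 genes kept a log2 fold change below 0 for HSC against MPP in each of the 17 alternatives, with Mcm7 between -0.99 and -0.90, Mcm4 between -1.46 and -0.86 and Cdt1 between -0.44 and -0.03. The number of the 10 genes called was 0 in edgeR with RLE or total-count scaling, without the filter and with a stricter one, 2 with bias-adjusted quasi-likelihood (Mcm6 and Mcm7), 8 with DESeq2, 3 with limma-voom, 1 without the genotype block (Mcm7) and 1 in the additive model (Mcm7); the cause was not tested. Leaving out each library in turn gave 0 called each time, a smallest adjusted p among the 10 of 0.335 to 0.497 with fewer residual degrees of freedom, 7 to 8 at an unadjusted p under 0.05 and a summed MCM fold of 1.60 to 1.75. In the blocked fit, leaving out either library of a genotype takes out the same pair, and the fold changes nearly coincided. The 17 alternatives are therefore not independent of each other. For the Ifnar1 labels, DESeq2 called 1 of the 10 (Mcm6). Over all genes the HSC against MPP calls numbered 2, against 23 with the stricter filter (at least 10 CPM in 4 libraries, 9151 genes), 107 with bias-adjusted quasi-likelihood, 1880 with DESeq2, 156 with limma-voom, 207 without the block, 32 in the additive model and 0 without any 1 library. With DESeq2 the Nfat5 labels gave 166 calls and the Ifnar1 labels 233, against 0 by edgeR. With 1 library per cell type and genotype, genotype cannot be told apart from the library. The fewest counts behind any value of the 10 genes were 1263 (Gmnn).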
